A study of Mus musculus with 6 samples.

Results

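Interleukins are secreted proteins through which leukocytes and stromal cells signal to each other, and 69 genes that carry an interleukin name and a digit (Il1a to Il34, ligands, receptor chains and antagonists) are described here, of 19937 genes measured. They were chosen by symbol in the probe annotation, with 8 receptors of the common gamma chain family left out (Il2ra, Il2rb, Il2rg, Il4ra, Il7r, Il9r, Il15ra and Il21r), and each is represented by its brightest probe set with a single gene symbol. Of the 69, 36 encode ligands, 29 receptor chains (decoy and soluble receptors such as Il1r2 and Il22ra2 included), 3 other secreted antagonists or binding proteins (Il1rn, Il1f5 and Il18bp), and 1, Il1bos, is an opposite-strand transcript of the Il1b locus. The samples were Thy1.2+ cells, taken by magnetic purification from Rag1-/- mouse fetal thymi of embryonic day 17.5, 2 arrays per group. In the 79-6 group the tissue was stimulated for 40 h by anti-CD3 in the presence of 79-6 at 50 µM, a small molecule that blocks Bcl6, a transcriptional repressor. In the DMSO group it was stimulated for 40 h by anti-CD3 with DMSO alone. The fresh group was neither cultured nor stimulated (0 h). All 3 groups lack Rag1, so their thymocytes cannot rearrange T cell receptor genes, and anti-CD3 stands in for the missing receptor signal. The series design speaks of organ cultures. The labels do not say whether embryos were pooled or which cultures were separate, and p-values therefore measure the spread between arrays, which may be technical.

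Interleukins act through receptor chains that are shared between ligands. IL-12 and IL-23 share the Il12rb1 chain, the IL-6 family shares gp130 (Il6st), and the receptors of IL-10 and IL-22 share Il10rb. In the fetal thymus the epithelium makes IL-7 for early thymocytes, and the receptors of many other interleukins mark innate lymphoid, myeloid or early progenitor cells. Receptor chains of the JAK-STAT group activate STAT proteins, whereas receptors of the IL-1 and IL-17 families signal towards NF-kappaB.

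The signal of a probe set is given as log2 of the deposited RMA intensity, which has no absolute unit and does not rank genes by transcript number. Replicate arrays correlated at 0.997 (79-6), 0.998 (DMSO) and 0.998 (fresh) across genes, array medians lay between 6.63 and 6.70 on the log2 scale, and on these measures no array stood apart. The fresh arrays did differ in summed linear signal of marker lists described below. Fresh replicate 2 was above fresh replicate 1 for macrophage and dendritic cell markers (8842.5 against 5462.0). The same held for natural killer and innate lymphoid markers (17006.2 against 13988.2), whereas T-lineage markers were lower (37241.9 against 38608.4). The sort antigen Thy1 averaged 13.07 in 79-6, 13.23 in DMSO and 12.80 in fresh arrays, and the T-lineage marker Cd3e averaged 12.97 in 79-6, 12.96 in DMSO and 13.43 in fresh arrays. A gene was called when limma's adjusted p was under 0.05. In bulk RNA, fewer cells of a type and less RNA per cell cannot be told apart.

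With 79-6, against DMSO, 9 of the 69 members were called, 7 higher and 2 lower (13.0%, against 4.36% of all genes tested, 2.38% higher and 1.98% lower). Il1r2, the decoy receptor for IL-1, and Il10, an anti-inflammatory cytokine, rose about equally, 3.47-fold and 3.43-fold. Il17rb, a receptor chain for IL-25, fell 2.11-fold and Il5ra, the specific chain of the IL-5 receptor, 1.55-fold. The other rises were 1.59-fold for Il18rap, 1.52-fold for Il10rb, 1.45-fold for Il6ra, 1.30-fold for Il12rb1 and 1.26-fold for Il12rb2. The median log2 difference was 0.12 over the members and 0.02 over all genes. The calls for Il1r2, Il10 and Il17rb held whichever of the 6 arrays was left out. The count of higher members was 2 without DMSO replicate 1, DMSO replicate 2 or 79-6 replicate 2 and 3 without 79-6 replicate 1, and 1 lower member was called without DMSO replicate 1, DMSO replicate 2 or 79-6 replicate 2.

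The DMSO group, set against fresh cells, had 18 members called, 8 higher and 10 lower (26.1%, against 19.6% of all genes tested, 8.89% higher and 10.7% lower). Il6ra rose most (2.60-fold), and Il31ra, Il10 and Il7 fell furthest (5.45-fold, 4.09-fold and 2.04-fold). This comparison holds culture, time, DMSO and anti-CD3 together. Without DMSO replicate 2 the higher members numbered 5. The 79-6 group, set against fresh cells, had 12 higher and 9 lower members (30.4%, against 26.0% of all genes tested, 2401 genes higher and 2773 lower), with Il1r2 up 5.46-fold, Il6ra up 3.75-fold, Il31ra down 3.95-fold and Il17rb down 3.87-fold. The lower members numbered 5 without fresh replicate 2. The median log2 difference of the members was -0.01 for DMSO against fresh and 0.11 for 79-6 against fresh, beside 0.02 and 0.05 over all genes. The comparisons share groups, so their results are not independent of each other. The 2 arrays of a group lay wholly above or below the other group's for 39 members in 79-6 against DMSO (49.0% of all genes), 39 in DMSO against fresh (60.0%) and 46 in 79-6 against fresh (64.5%). Scaling moved the direction of calls over all genes: with arrays set to 1 median, 456 of 1140 called genes were higher for 79-6 against DMSO, beside 475 of 869 without, and 2388 of 4104 for DMSO against fresh, beside 1773 of 3902.

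**Figure D1:**
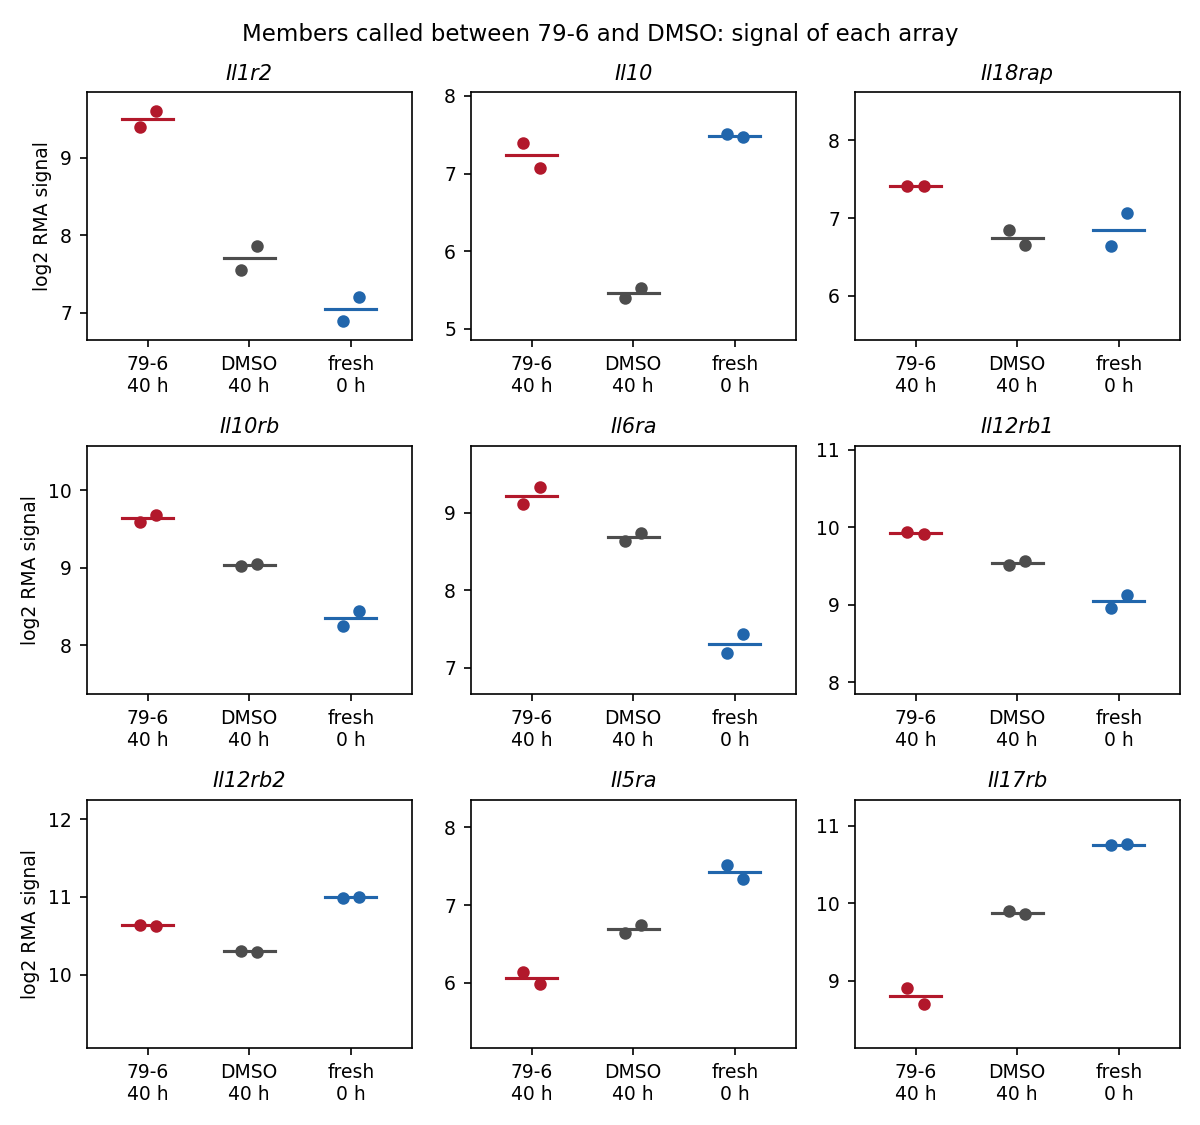
Log2 RMA signal (vertical axes, each spanning the same number of log2 units) of the 9 members called between 79-6 and DMSO, with 1 point per array and a line at the group mean. Il10 is low in the DMSO arrays only, and Il5ra and Il17rb are lowest in the 79-6 arrays and highest in the fresh arrays.

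Receptor chains made up most of the calls. With 79-6 against DMSO, 6 of 29 receptor chains were higher and 2 lower, while 1 of 36 ligands, Il10, was higher and none lower (5 ligands had an unadjusted p under 0.05). In DMSO against fresh cells, 7 receptor chains were higher and 6 lower, and 1 ligand, Il15, was higher and 3 were lower (Il7, Il10 and Il34). For 79-6 against fresh cells the counts were 11 and 6 for receptor chains and 1 and 3 for ligands (Il15 higher, Il6, Il7 and Il34 lower). Of 29 receptor chains 16 had a mean signal above the median of all genes, against 4 of 36 ligands, and among all genes above that median 7.45%, 31.8% and 41.1% were called for 79-6 against DMSO, DMSO against fresh and 79-6 against fresh. The 22 members above the median had 6, 11 and 11 calls in these comparisons.

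**Figure D2:**
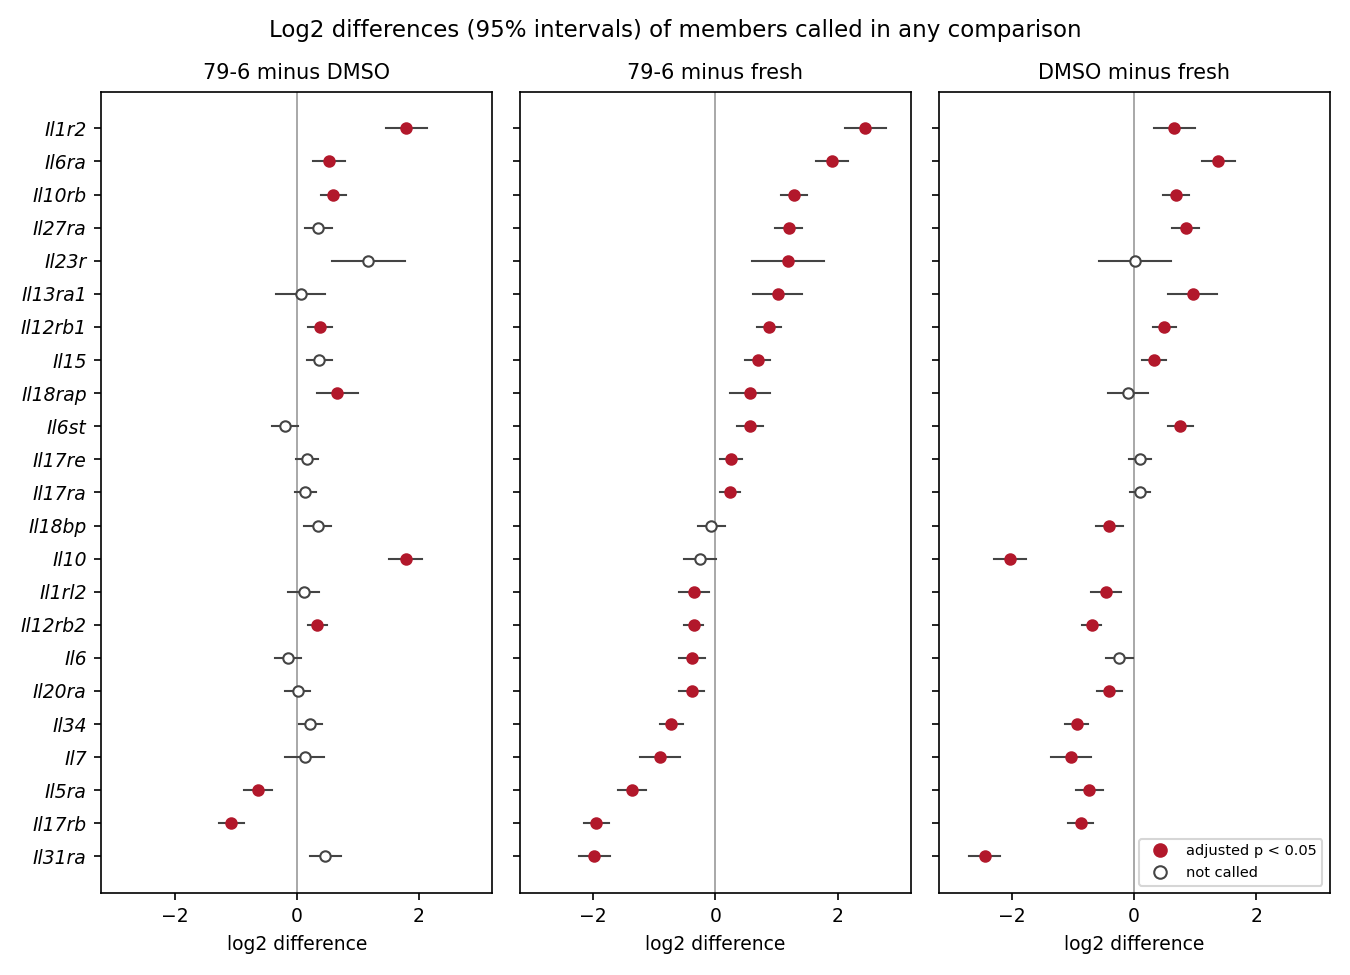
Log2 differences with 95% intervals (horizontal axes) for the 23 members called in at least 1 comparison, in rows ordered by 79-6 minus fresh; filled points passed an adjusted p of 0.05. Il1r2 lies furthest to the right for 79-6 against fresh (2.45), and Il10 lies at 1.78 for 79-6 against DMSO and at -2.03 for DMSO against fresh.

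Promoter sequences of 4 members are shown because they include the IL-1 decoy receptor and both receptor chains that were lower with 79-6, and Il31ra, the member with the largest fall after culture. Each is the 250 bases before the RefSeq start (GRCm38.p6), 5′ to 3′ on the gene's strand: Il1r2 at chr1:40085843-40086092 (plus strand), Il17rb at chr14:30008897-30009146 (minus strand), Il5ra at chr6:106749038-106749287 (minus strand) and Il31ra at chr13:112580663-112580912 (minus strand). Capitals mark matches, on either strand, to GCGTG, the core bound by the aryl hydrocarbon receptor, to TTCNNNGAA, a palindrome read by STAT proteins and contained in Bcl6 sites, and to TGGGAA, the core of Rbpj sites in the Notch pathway.
Il1r2: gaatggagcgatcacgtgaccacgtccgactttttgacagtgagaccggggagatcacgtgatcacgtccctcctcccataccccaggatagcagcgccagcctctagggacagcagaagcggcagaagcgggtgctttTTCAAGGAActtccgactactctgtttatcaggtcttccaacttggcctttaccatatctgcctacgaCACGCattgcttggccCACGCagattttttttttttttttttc
Il17rb: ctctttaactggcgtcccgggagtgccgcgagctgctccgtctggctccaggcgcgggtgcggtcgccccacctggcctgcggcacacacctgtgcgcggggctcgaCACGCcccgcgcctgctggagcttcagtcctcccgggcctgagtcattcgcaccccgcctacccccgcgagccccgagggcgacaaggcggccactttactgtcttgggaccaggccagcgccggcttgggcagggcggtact
Il5ra: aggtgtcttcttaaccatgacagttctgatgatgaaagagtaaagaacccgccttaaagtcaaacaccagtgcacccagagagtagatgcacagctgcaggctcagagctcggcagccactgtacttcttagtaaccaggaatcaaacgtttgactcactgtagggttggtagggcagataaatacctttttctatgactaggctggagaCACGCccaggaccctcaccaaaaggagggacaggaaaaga
Il31ra: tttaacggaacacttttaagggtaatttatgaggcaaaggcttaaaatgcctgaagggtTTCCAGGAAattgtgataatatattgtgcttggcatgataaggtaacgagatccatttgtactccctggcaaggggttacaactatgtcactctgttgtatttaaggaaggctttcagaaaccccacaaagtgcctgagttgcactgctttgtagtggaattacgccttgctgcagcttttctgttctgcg
The Il1r2 window holds 2 matches to GCGTG, whose first letters lie 43 and 27 bases before the start, and 1 to TTCNNNGAA. The Il17rb and Il5ra windows hold 1 match to GCGTG each, 143 and 40 bases before the start, and the Il31ra window 1 to TTCNNNGAA, 191 bases before it. No TGGGAA is in these 4 windows. Of 32851 promoter windows of this length, 28.2% hold GCGTG, 7.0% TTCNNNGAA and 21.6% TGGGAA. Among the 53 members with a window, 13 hold GCGTG, 8 hold TTCNNNGAA and 21 hold TGGGAA. Members are counted per gene, with a match in any of its windows, and some have several. These counts are therefore not directly comparable with the shares per window. Of the 9 members called between 79-6 and DMSO, 6 have a window. GCGTG is held by 4 of these (Il1r2, Il17rb, Il5ra and Il12rb2), TTCNNNGAA by 2 and TGGGAA by 1. The same 4 genes were also called in both comparisons with fresh cells. There GCGTG is held by 5 of 11 called members with a window for DMSO and by 5 of 14 for 79-6. A match says only that the letters are present.

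In the IL-10 family, Il10 was the member that moved furthest. Its probe set (10349603) had a log2 signal of 7.40 and 7.08 in the 79-6 arrays, 5.39 and 5.52 in the DMSO arrays and 7.51 and 7.47 in the fresh arrays. Both DMSO arrays lay far below the other 4, and the 79-6 arrays lay just under the fresh ones without overlap. The log2 difference was 1.78 ± 0.11 (SE) for 79-6 against DMSO (adjusted p = 9.2e-04, limma) and -2.03 ± 0.11 for DMSO against fresh (adjusted p = 4.9e-05, limma). For 79-6 against fresh it was -0.25, with a 95% interval of -0.52 to 0.01, and was not called (adjusted p = 0.149, limma).

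Il10rb, the receptor chain shared by IL-10, IL-22 and type III interferons, was 9.59 and 9.69 in 79-6, 9.02 and 9.05 in DMSO and 8.26 and 8.45 in fresh arrays (probe set 10436841). The 3 groups did not overlap and stood in steps, with a log2 difference of 0.60 ± 0.09 (SE) for 79-6 against DMSO (adjusted p = 0.0173, limma) and 0.69 ± 0.09 for DMSO against fresh (adjusted p = 0.00180, limma). Against fresh cells the 79-6 arrays were 1.29 higher (adjusted p = 9.8e-05, limma). The call against DMSO was lost without DMSO replicate 1 (adjusted p = 0.105), DMSO replicate 2 (0.107) or 79-6 replicate 2 (0.102). Il10ra, the chain specific to IL-10, was 9.59 and 9.59 in 79-6, 9.42 and 9.57 in DMSO and 9.22 and 9.53 in fresh arrays, and was not called (0.09 for 79-6 against DMSO, 95% interval -0.17 to 0.35). Il20ra, a chain of the IL-20 receptor, was lower in both cultured groups, at 6.26 ± 0.05 in 79-6 and 6.25 ± 0.05 in DMSO, against 6.65 ± 0.13 in fresh arrays (SD, n = 2 each). Its call for DMSO against fresh needed each of 3 arrays and was lost without fresh replicate 2 (adjusted p = 0.103), DMSO replicate 1 (0.05805) and DMSO replicate 2 (0.0891), and that for 79-6 against fresh without fresh replicate 2 (0.0942) or 79-6 replicate 1 (0.0541). Il19, Il20 and Il24, ligands of the same family, Il20rb, Il22ra1 and the soluble IL-22 receptor gene Il22ra2 were not called in any comparison.

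The IL-1 family was led by Il1r2, which binds IL-1 without signalling. Probe set 10345752 read 9.40 and 9.60 in 79-6, 7.55 and 7.86 in DMSO and 6.90 and 7.20 in fresh arrays. Each group lay above the next without overlap. The log2 difference was 1.79 ± 0.14 (SE) for 79-6 against DMSO (adjusted p = 0.00244, limma), 2.45 ± 0.14 for 79-6 against fresh (adjusted p = 5.2e-05, limma) and 0.66 ± 0.14 for DMSO against fresh (adjusted p = 0.0177, limma). The last call was lost without fresh replicate 1 (adjusted p = 0.0969) or DMSO replicate 2 (0.101).

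Both chains of the IL-18 receptor were higher on the 79-6 arrays than on the DMSO arrays, and 1 of them was called. Il18rap, the accessory chain, was 7.41 and 7.42 in 79-6, 6.84 and 6.65 in DMSO and 6.63 and 7.06 in fresh arrays, a log2 difference of 0.67 ± 0.14 (SE) for 79-6 against DMSO (adjusted p = 0.0471, limma) and 0.56 ± 0.14 for 79-6 against fresh (adjusted p = 0.0236, limma). The first call was lost without DMSO replicate 1 (adjusted p = 0.134), DMSO replicate 2 (0.223), 79-6 replicate 1 (0.0973) or 79-6 replicate 2 (0.189), and the second without fresh replicate 1 (0.0924), 79-6 replicate 1 (0.0689) or 79-6 replicate 2 (0.0903). Il18r1, the ligand-binding chain, was 7.97 and 7.76 in 79-6, 6.99 and 7.43 in DMSO and 7.25 and 7.49 in fresh arrays, and its difference from DMSO of 0.65 was not called (adjusted p = 0.0657, limma). Il18bp, which neutralises IL-18, averaged 8.51 ± 0.10 in 79-6, 8.17 ± 0.07 in DMSO and 8.58 ± 0.13 in fresh arrays (SD, n = 2 each), and was called lower for DMSO against fresh. That call ended when fresh replicate 2 was left out (adjusted p = 0.134), and likewise for DMSO replicate 1 (0.123) and for DMSO replicate 2 (0.0618). Il18 itself was not called.

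Il1rl2, the IL-36 receptor, averaged 7.44 ± 0.08 in 79-6 and 7.33 ± 0.07 in DMSO, against 7.79 ± 0.20 in fresh arrays (SD, n = 2 each), and was called lower in both cultured groups. For DMSO against fresh leaving out fresh replicate 2 (adjusted p = 0.114), DMSO replicate 1 (0.122) or DMSO replicate 2 (0.0650) ended the call. For 79-6 against fresh it was kept in 1 of 6 such fits, that without fresh replicate 1 (adjusted p up to 0.240 in the other 5). None of the 10 measured ligands and antagonists of the IL-1 family was called by limma (unadjusted p under 0.05 for 1 in 79-6 against DMSO and for 3 in each comparison with fresh cells). Il1rn, the IL-1 receptor antagonist, came closest, at 8.39 and 8.48 in 79-6, 7.45 and 7.84 in DMSO and 7.70 and 8.18 in fresh arrays (0.79 for 79-6 against DMSO, adjusted p = 0.0566, limma). Il1b was 7.79 and 7.45 in 79-6, 7.15 and 7.23 in DMSO and 7.37 and 8.27 in fresh arrays. Il1a was 7.38 and 6.91 in 79-6, 6.81 and 7.07 in DMSO and 7.28 and 8.10 in fresh arrays. For both cytokines fresh replicate 2 was the highest of the 6 arrays and the fresh replicates differed by more than any group means did. Il33 and the IL-36 ligand genes Il1f6, Il1f8 and Il1f9 were not called.

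Among IL-17 family receptors, Il17rb fell in steps. Probe set 10418341 read 8.91 and 8.70 in 79-6, 9.90 and 9.86 in DMSO and 10.75 and 10.76 in fresh arrays. The groups were fully separate, with log2 differences of -1.07 ± 0.09 (SE) for 79-6 against DMSO (adjusted p = 0.00253, limma), -1.95 ± 0.09 for 79-6 against fresh (adjusted p = 1.8e-05, limma) and -0.88 ± 0.09 for DMSO against fresh (adjusted p = 5.8e-04, limma). Il17ra, the chain with which Il17rb pairs, was 10.58 and 10.65 in 79-6, 10.44 and 10.50 in DMSO and 10.38 and 10.36 in fresh arrays. It was called only for 79-6 against fresh, at 0.24 ± 0.07 (adjusted p = 0.0435, limma), and this call was lost in each fit that left out 1 array (adjusted p from 0.0596 to 0.182). Il17re, the IL-17C receptor chain, was called in the same comparison alone, at 0.25 ± 0.08 (adjusted p = 0.0462, limma), and kept the call in 1 of 6 such fits, that without 79-6 replicate 1 (0.0730 to 0.179 in the others). Il17rc, Il17rd and the 6 ligands Il17a, Il17b, Il17c, Il17d, Il17f and Il25 were not called (1 of these ligands, in 79-6 against DMSO, had an unadjusted p under 0.05). Of these ligands Il17a was 6.42 and 6.38 in 79-6, 6.29 and 6.22 in DMSO and 6.35 and 6.39 in fresh arrays, and the 2 Il17rd probe sets both gave small positive differences for 79-6 against DMSO (0.24 and 0.27).

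Both chains of the IL-12 receptor were higher with 79-6 than with DMSO, while the ligand chains Il12a, Il12b and Il23a were not called in any comparison. Il12rb2, the signalling chain of the IL-12 receptor, was 10.64 and 10.63 in 79-6, 10.30 and 10.30 in DMSO and 10.98 and 11.01 in fresh arrays. The 79-6 arrays lay midway between the other groups, at 0.34 ± 0.07 (SE) above DMSO (adjusted p = 0.0414, limma) and 0.36 below fresh cells (log2 difference -0.36 ± 0.07, adjusted p = 0.00719, limma), and DMSO differed from fresh by -0.70 ± 0.07 (adjusted p = 5.1e-04, limma). Il12rb1, the chain shared with the IL-23 receptor, rose in steps instead. It was 9.94 and 9.91 in 79-6, 9.51 and 9.57 in DMSO and 8.96 and 9.13 in fresh arrays, with 0.38 ± 0.08 for 79-6 against DMSO (adjusted p = 0.0491, limma) and 0.50 ± 0.08 for DMSO against fresh (adjusted p = 0.00553, limma). For both chains the call for 79-6 against DMSO was lost in each fit that left out 1 array (adjusted p from 0.0768 to 0.181 for Il12rb2 and from 0.0602 to 0.201 for Il12rb1) and with arrays set to 1 median (0.0683 for Il12rb2 and 0.0595 for Il12rb1). The Il12rb2 call for 79-6 against fresh was lost without fresh replicate 2 (0.0522).

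Il23r, the chain specific to IL-23, was 7.19 and 7.13 in 79-6, 5.93 and 6.05 in DMSO and 5.52 and 6.43 in fresh arrays. The 79-6 arrays lay above all 4 others, and the fresh replicates lay further apart than any other replicate pair of any member. The log2 difference of 1.17 ± 0.25 (SE) for 79-6 against DMSO, 2.25-fold, had an adjusted p of 0.05002 (limma) and so was not called. The difference of 1.18 ± 0.25 for 79-6 against fresh was called (adjusted p = 0.0128, limma), but not without 79-6 replicate 1 (0.0510) or 79-6 replicate 2 (0.0561).

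In the IL-6 family the receptor chains moved in different directions. Il6ra, the IL-6 binding chain, was 9.11 and 9.33 in 79-6, 8.64 and 8.74 in DMSO and 7.19 and 7.43 in fresh arrays. All 3 groups were separate, and the log2 difference was 1.38 ± 0.11 (SE) for DMSO against fresh (adjusted p = 2.5e-04, limma) and 0.53 ± 0.11 for 79-6 against DMSO (adjusted p = 0.0484, limma). The second call was lost without DMSO replicate 1 (adjusted p = 0.202), DMSO replicate 2 (0.169), 79-6 replicate 1 (0.0519) or 79-6 replicate 2 (0.205). Il6st, the gp130 signalling chain of the family, was 10.06 and 10.15 in 79-6, 10.20 and 10.40 in DMSO and 9.57 and 9.52 in fresh arrays, so that both cultured groups were higher (DMSO against fresh 0.76 ± 0.09, adjusted p = 0.00127, limma). Il27ra, which pairs with gp130 for IL-27, was 10.02 and 9.89 in 79-6, 9.60 and 9.61 in DMSO and 8.65 and 8.87 in fresh arrays. It rose 1.79-fold in DMSO and 2.29-fold in 79-6 against fresh cells (adjusted p = 0.0010 and 1.8e-04, limma).

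Il31ra, a gp130-related chain that binds IL-31 together with the oncostatin M receptor, went the other way. Probe set 10412126 read 5.94 and 6.17 in 79-6, 5.51 and 5.68 in DMSO and 7.97 and 8.11 in fresh arrays. The fresh arrays were far above the other 4, and the log2 difference was -2.45 ± 0.11 (SE) for DMSO against fresh (adjusted p = 2.1e-05, limma) and -1.98 ± 0.11 for 79-6 against fresh (adjusted p = 3.8e-05, limma). The 79-6 arrays lay above the DMSO arrays by 0.46, which was not called (adjusted p = 0.0605, limma). Osmr, its partner chain, was not called in any comparison (-0.23 for DMSO against fresh). The ligands Il11, Il27 and Il31 were not called, and Il6 was called only for 79-6 against fresh (-0.38 ± 0.09, adjusted p = 0.0199, limma), with a signal of 3.84 to 4.33 over the 6 arrays. That call was lost without fresh replicate 2 (adjusted p = 0.124), 79-6 replicate 1 (0.0657) or 79-6 replicate 2 (0.0601).

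Of the receptors for IL-3, IL-5 and IL-13, Il5ra fell in steps like Il17rb. It was 6.14 and 5.99 in 79-6, 6.64 and 6.75 in DMSO and 7.52 and 7.33 in fresh arrays (probe set 10546762), with no overlap. The log2 difference was -0.63 ± 0.10 (SE) for 79-6 against DMSO (adjusted p = 0.0195, limma) and -0.73 ± 0.10 for DMSO against fresh (adjusted p = 0.00205, limma). Against fresh cells the 79-6 arrays differed by -1.36 (adjusted p = 1.1e-04, limma). The call against DMSO was lost without DMSO replicate 1 (adjusted p = 0.0888), DMSO replicate 2 (0.133) or 79-6 replicate 2 (0.110). Il13ra1, which pairs with the IL-4 receptor, was higher in both cultured groups, at 8.92 and 9.23 in 79-6 and 8.95 and 9.07 in DMSO, against 7.81 and 8.30 in fresh arrays. The cultured groups overlapped (79-6 against DMSO 0.06, 95% interval -0.33 to 0.46), and DMSO against fresh was 0.96 ± 0.17 (adjusted p = 0.00743, limma), a call lost without DMSO replicate 2 (0.0542). Il3ra, at 8.18 to 8.44 on all 6 arrays, was not called, nor were Il13ra2 and the ligands Il3, Il5 and Il13.

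Ligands of the common gamma chain family were dim on these arrays, all 6 below the median signal of all genes. Il7, the survival cytokine of early thymocytes, was 5.46 and 5.24 in 79-6, 5.03 and 5.41 in DMSO and 6.18 and 6.32 in fresh arrays, lower than in fresh cells, with log2 differences of -0.90 ± 0.14 for 79-6 (SE, adjusted p = 0.00317, limma) and -1.03 ± 0.14 for DMSO (adjusted p = 0.00224, limma). Il15 was 7.12 and 7.17 in 79-6, 6.75 and 6.80 in DMSO and 6.36 and 6.55 in fresh arrays, higher than in fresh cells by 0.69 ± 0.09 in 79-6 (adjusted p = 0.00119, limma) and by 0.32 ± 0.09 in DMSO (adjusted p = 0.0373, limma). The DMSO call did not survive when fresh replicate 1 (0.222) was left out, or either DMSO replicate (0.115 without replicate 1, 0.158 without replicate 2), nor with trend and robust moderation (0.0542). Il2, Il4, Il9 and Il21 were not called in any comparison; Il2 was 5.65 and 5.31 in 79-6, 5.22 and 5.42 in DMSO and 5.20 and 5.31 in fresh arrays. Il34, a ligand of the macrophage colony-stimulating factor receptor, was 6.84 and 6.85 in 79-6, 6.57 and 6.69 in DMSO and 7.51 and 7.63 in fresh arrays, lower than in fresh cells, with log2 differences of -0.72 ± 0.08 for 79-6 and -0.94 ± 0.08 for DMSO (adjusted p = 7.5e-04 and 2.9e-04, limma). Il16 was not called.

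In all, 46 of 69 members were called in no comparison, among them 31 of the 36 ligands, and 47 members lay at or below the median signal of all genes. Such probe sets carry no detection call here, so a signal near the array's floor cannot be read as presence or absence of the transcript. For 6 members the differences of 79-6 against DMSO and of DMSO against fresh were both called with the same sign: Il1r2, Il6ra, Il10rb and Il12rb1 higher, Il5ra and Il17rb lower. For Il10 and Il12rb2 both were called with opposite sign. Both differences use the DMSO arrays, so neither count is evidence apart from the values above.

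Several members are neighbours on a chromosome, by gene order in RefSeq (GRCm38.p6). In the IL-1 receptor cluster on chromosome 1 the log2 difference for 79-6 against DMSO was 1.79 for Il1r2, 0.11 for Il1rl2, 0.65 for Il18r1 and 0.67 for Il18rap. Il1r1, between Il1r2 and Il1rl2, and Il1rl1, between Il1rl2 and Il18r1, had no 1-symbol probe set and were not among the genes tested. Il10 lies at the end of a row with Il24, Il20 and Il19 on chromosome 1. The difference of Il10 was 1.78, and those of Il24, Il20 and Il19 were -0.02, 0.01 and 0.09. Il24, Il20 and Il19 were dim (mean log2 signal 4.96, 5.38 and 5.74), so these small differences cannot be read as unchanged transcripts. The adjacent Il12rb2 and Il23r on chromosome 6 were 0.34 and 1.17 above DMSO, whereas DMSO against fresh gave -0.70 for Il12rb2 and 0.01 for Il23r. On chromosome 13, Il6st and Il31ra are neighbours and moved oppositely in DMSO against fresh, by 0.76 and -2.45. On chromosome 11 none of the members Il4, Il13 and Il5 was called. Rad50, which is not a member and lies between Il13 and Il5, was called for 79-6 against fresh (-0.42, adjusted p = 0.00370, limma).

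**Figure D3:**
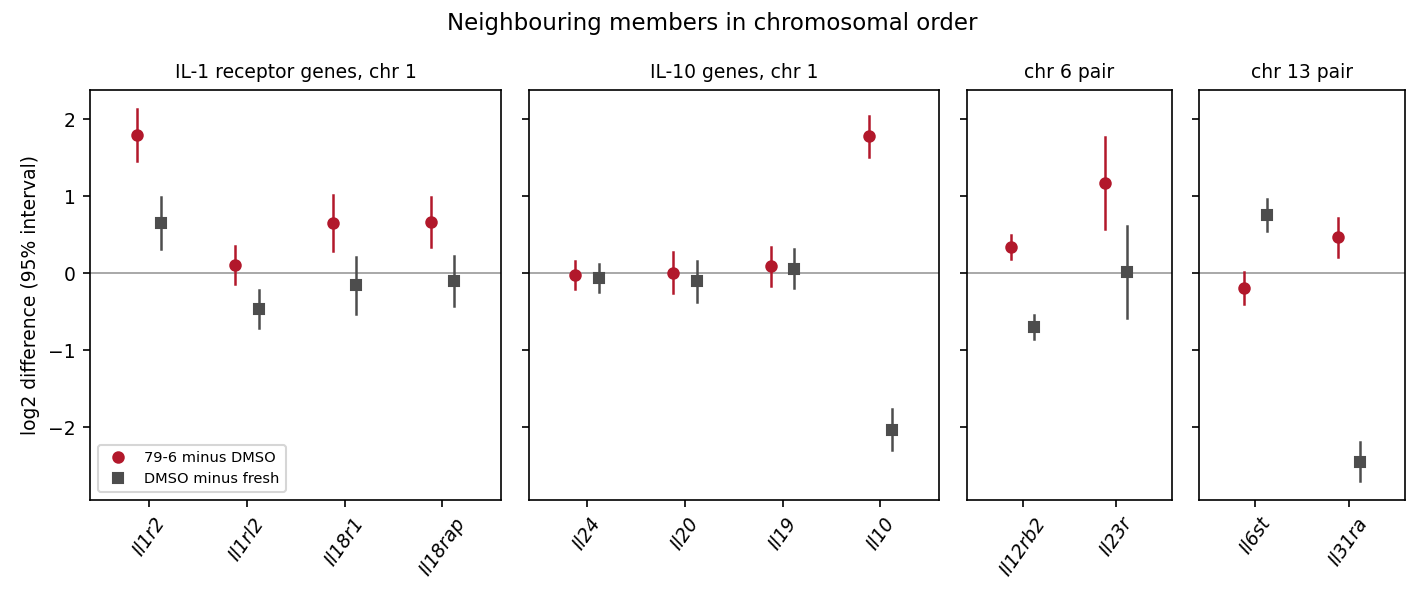
Log2 differences with 95% intervals (vertical axis) of neighbouring members in chromosomal order, for 79-6 minus DMSO (circles) and DMSO minus fresh (squares). Il1r1 and Il1rl1, which lie within the IL-1 receptor cluster, were not measured and are not shown. Il10 moves in both comparisons, while Il24, Il20 and Il19, all dim on these arrays, lie near 0. Il6st and Il31ra lie on opposite sides of 0 for DMSO minus fresh.

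The genes that carry interleukin signals inside the cell were described from a list of 32, of which 28 were measured. With 79-6 against DMSO, 3 were higher and none lower: Irak2, a kinase of the IL-1 receptor pathway (0.74), Nfkbiz, a nuclear NF-kappaB cofactor (0.60), and Myd88, the adaptor of IL-1 and IL-18 receptors (0.41), with adjusted p = 0.0103, 0.0269 and 0.0344 (limma). In DMSO against fresh cells 6 were higher and 2 lower, led by Csf2rb, the chain shared by the IL-3 and IL-5 receptors (1.36), Casp1, which matures IL-1beta and IL-18 (0.85), and Nfkbia (0.70), with Stat5a lower (-0.46). For 79-6 against fresh, 14 were higher and 1 lower. The list's median log2 difference was 0.21, 0.09 and 0.35 for 79-6 against DMSO, DMSO against fresh and 79-6 against fresh. Over all genes it was 0.02, 0.02 and 0.05. In the same order 10.7%, 28.6% and 53.6% of the list were called, against 4.36%, 19.6% and 26.0% of all genes tested. Of the 28 genes, 25 lay above the median signal of all genes. Among all genes above that median 7.45%, 31.8% and 41.1% were called. Of the 7 measured common gamma chain family receptors that the rule leaves out, 3 were higher and 1 lower for 79-6 against DMSO (57.1%). For DMSO against fresh 2 were higher and 4 lower (85.7%). All 7 lay above the median signal of all genes.

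Markers of other cell types moved with several of these genes. The summed linear signal of 19 measured macrophage and dendritic cell markers was 23764 to 26603 in 79-6, 18373 to 18990 in DMSO and 5462 to 8843 in fresh arrays, and the markers had 2 higher and none lower for 79-6 against DMSO, 6 and none for DMSO against fresh. Without Lyz2, the brightest of them in 79-6 and DMSO arrays, the sum was 14410 to 15551 in 79-6, 9776 to 10550 in DMSO and 5016 to 8091 in fresh arrays. This is the order of groups shown by Il1r2, Il6ra, Il10rb, Il12rb1 and Il27ra, which are named here because they show it. For Il27ra the difference of 79-6 from DMSO (0.35) was not called (adjusted p = 0.0878, limma). Among the defining genes, Csf1r was 9.78 in 79-6, 9.46 in DMSO and 8.03 in fresh arrays. It was called for DMSO against fresh but not for 79-6 against DMSO. Itgax was 8.18 in 79-6, 7.04 in DMSO and 6.93 in fresh arrays. It was called, like C1qa, for 79-6 against DMSO but not for DMSO against fresh. The dendritic cell genes Clec9a and Xcr1 were not called, and both were dim (mean log2 signal 4.76 and 5.63). For 79-6 against DMSO 4 of the 19 differences were negative, among them Mrc1 (-0.31) and Siglech (-0.22). The 18 granulocyte and mast cell markers summed to 7235 to 9341 in 79-6, 6164 to 6228 in DMSO and 4589 to 5377 in fresh arrays, but without Mmp8 the sum was 3585 to 4945 in 79-6, 4382 to 4735 in DMSO and 4509 to 5254 in fresh arrays, and the groups overlapped. Mmp8, a neutrophil collagenase, was 11.97 in 79-6, 10.67 in DMSO and 6.64 in fresh arrays. Of the 18 markers, 1 was higher (Mmp8) and 3 were lower for 79-6 against DMSO: Mpo (-0.86, adjusted p = 0.0363, limma) and Prtn3 (-0.80, adjusted p = 0.0299, limma), granule proteins of myeloid precursors, and Cpa3. For DMSO against fresh 6 were higher and 1 lower. Cpa3, a mast cell and progenitor protease, was 8.47 in 79-6, 9.90 in DMSO and 11.50 in fresh arrays. Il17rb and Il5ra showed the same order. The mast cell genes Ms4a2, Fcer1a and Cma1 were not called. They were dim (mean log2 signal 4.70, 4.50 and 5.25), so their lack of a call says little about mast cells. The part of these cell types in the results was not tested.

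Natural killer (NK) and innate lymphoid markers, 15 measured, summed to 16670 to 17300 in 79-6, 11375 to 11442 in DMSO and 13988 to 17006 in fresh arrays, low in DMSO like Il10, Il12rb2 and Il18bp. This sum was not recomputed without its brightest genes. With 79-6 against DMSO 6 of the 15 were higher and none lower, among them Gzmb (1.13) and Nkg7 (1.12). In DMSO against fresh 8 were lower and 2 higher, Tyrobp (1.01) and Gata3 (0.34). The NK genes Klrd1, Klrb1c and Prf1 were not called for DMSO against fresh (-0.03, 0.05 and 0.12). Thymic epithelial markers, 14 measured, summed to 7824 to 7972 in 79-6, 6037 to 8310 in DMSO and 14411 to 14928 in fresh arrays, with 11 lower and none higher for DMSO against fresh. The 10 members called lower in that comparison, Il7, Il34 and Il31ra among them, share this direction because they were chosen for it. Of those, Il10 and Il12rb2 were called higher and Il17rb and Il5ra lower for 79-6 against DMSO, where these sums overlapped. A link of these members to epithelium was not tested. The epithelial regulator Foxn1 was 7.07 in 79-6, 6.77 in DMSO and 8.06 in fresh arrays. Mesenchymal and endothelial markers, 14 measured, summed to 4778 to 4848 in 79-6, 4209 to 4819 in DMSO and 5479 to 5921 in fresh arrays, with 3 higher and 3 lower for 79-6 against fresh, 0 higher and 1 lower for 79-6 against DMSO (5 at an unadjusted p under 0.05, limma), and 1 higher and 4 lower for DMSO against fresh. The order of these sums rested on Pdgfrb, a pericyte and mesenchymal receptor at 9.11 in 79-6, 9.47 in DMSO and 11.07 in fresh arrays: without it the sum was 4216 to 4308 in 79-6, 3526 to 4078 in DMSO and 3379 to 3709 in fresh arrays. The 6 T-lineage markers summed to 29432 to 30807 in 79-6, 29444 to 30446 in DMSO and 37242 to 38608 in fresh arrays, but moved in both directions, with 2 higher (Cd2 and Thy1) and 4 lower for DMSO against fresh. Cd2, an adhesion molecule of T-lineage cells, was 10.17 in 79-6, 10.07 in DMSO and 6.72 in fresh arrays (3.35 for DMSO against fresh, adjusted p = 2.6e-05, limma). None of the 6 was called between 79-6 and DMSO (1 at an unadjusted p under 0.05, limma). The purification for Thy1.2 is meant to remove cells without that antigen, such as macrophages, granulocytes and epithelium, and its purity is not given in the sources used here. Whether the interleukin genes changed within thymocytes or with these other cells was not tested.

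**Figure D4:**
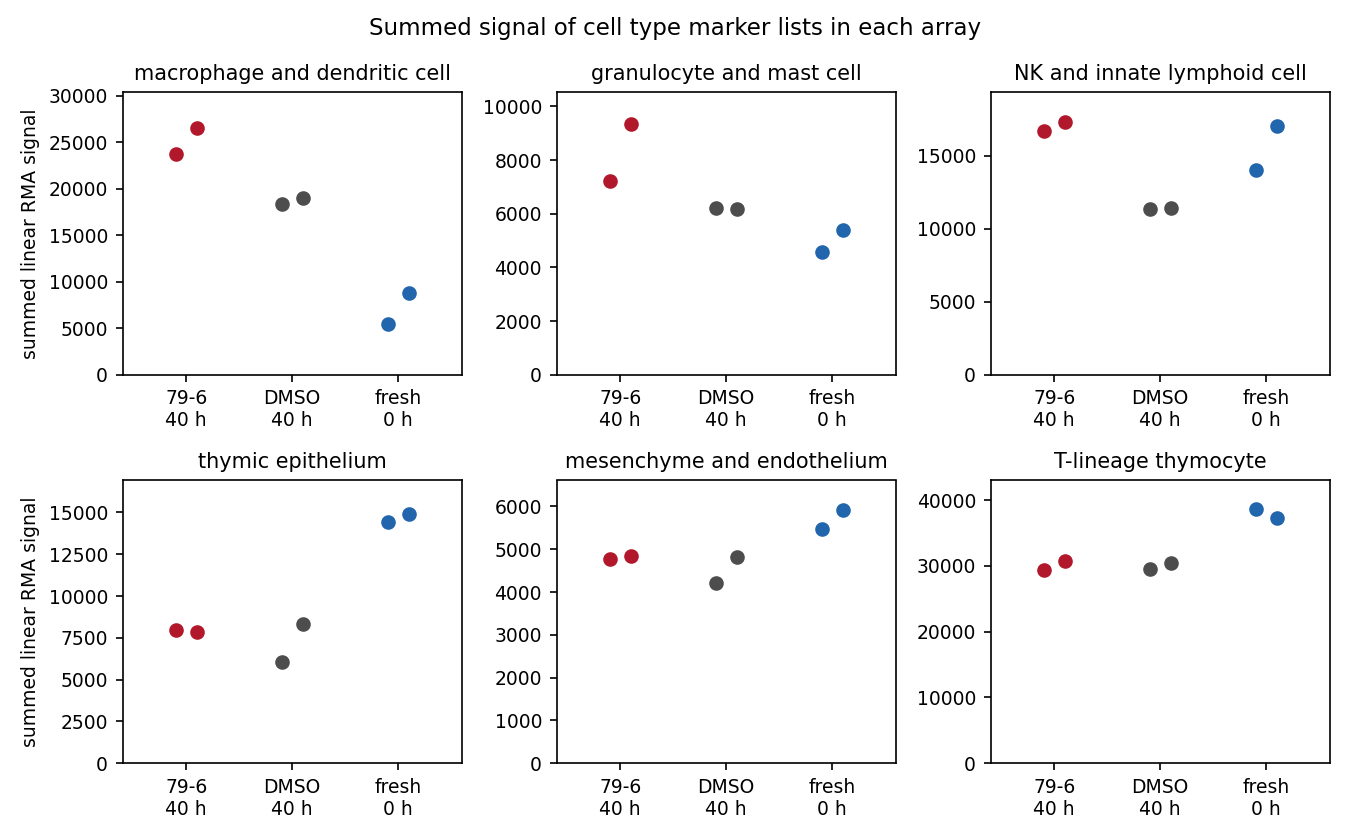
Summed linear RMA signal (vertical axes, from 0) of 6 cell type marker lists, with 1 point per array. Macrophage and dendritic cell markers are highest in 79-6 and lowest in fresh arrays, NK and innate lymphoid markers are lowest in DMSO, and thymic epithelial markers are highest in fresh arrays.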

How the data were processed

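Expression was measured on 6 one-colour Affymetrix whole-transcript mouse arrays, 2 per group. The authors deposited 1 intensity per probe set and array, made with RMA in the R package oligo per the submitters' processing notes; no version is stated. The values lie on a linear scale, and their log2 (3.13 to 14.63) was used. RMA as usually run brings arrays to a like distribution, so differences are relative to the other genes of an array; the array medians still differed slightly. Of 34760 probe sets, 21640 had 1 gene symbol, 1321 several and 11799 none; the brightest 1-symbol probe set of each of 19937 genes was tested. Members with only several-symbol probe sets or none are not analysed here. One limma model (3.58.1, in R 4.3.3; lmFit, eBayes) held all 6 arrays and gave each group its mean, leaving 3 residual degrees of freedom and adding 4.24 prior ones. Its two-sided p-values were adjusted over all genes by Benjamini-Hochberg. SE is limma's standard error. The fit was also run on simulated data with 200 changed genes and errors independent between genes. Far fewer genes were changed there than were called here, so that run does not show how reliable these calls are. The alternatives were other scalings, moderation, probe set choice, filters, samples and a replicate block. Deviations of same-numbered arrays from group means correlated at -0.07, 0.09 and 0.00, and the labels do not say that numbers pair arrays. Members, gene lists, motifs and the naming rule (the 12 called members of largest change per direction, and the brightest uncalled ones) were chosen with earlier results of these data known; members named beyond it were chosen after their values were seen. Promoters are from RefSeq, GRCm38.p6; the arrays' build is not given in the sources used here. Marker sums without their dominant gene were added after the values were seen.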

Additional observations from a re-analysis of the deposited data

How the results depend on the processing

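No member's called difference changed sign under any alternative run. Of 48 calls over the 3 comparisons, 28 held in each fit that left out 1 array and 26 under every alternative that tested the gene. With 79-6 against DMSO, 7 members were higher and 2 lower. Arrays set to 1 median gave 8 and 2, quantile normalization 9 and 2, the mean of a gene's probe sets 8 and 2, and the 4 compared arrays alone 7 and 2; trend and robust moderation gave 12 higher, and a 1.5-fold minimum 4 higher. Only genes above the median level gave 1 lower member, with 22 members tested. In DMSO against fresh that filter gave 4 lower members, and in 79-6 against fresh 3, where a 1.5-fold minimum gave 5 lower. Leaving out 1 array gave 2 to 7 higher and 1 to 2 lower members for 79-6 against DMSO, 5 to 9 higher and 7 to 13 lower for DMSO against fresh, and 8 to 12 higher and 5 to 11 lower for 79-6 against fresh; a group then holds a single array, assumed to vary like the others. With the replicate number as a block, 7 members were higher and 2 lower for 79-6 against DMSO, with 6 of the 9 calls shared, 8 and 10 for DMSO against fresh, and 12 and 9 for 79-6 against fresh. Whether the numbers pair arrays is not known. With 2 arrays per group the calls nearest the threshold turn on single arrays, and dim probe sets have no detection call. Over all genes, 869 were called for 79-6 against DMSO, beside 1723 with trend and robust moderation, 1547 among genes above the median level, 322 with a 1.5-fold minimum and 93 to 661 without 1 array. For DMSO against fresh 3902 were called, beside 1502 with that minimum and 2286 to 4070 without 1 array, and for 79-6 against fresh 5174, beside 1903 and 3081 to 5068.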
